A study of Homo sapiens with 5 samples.

Results

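Neuronatin (NNAT), BLCAP, DLK1, PEG10, MEST and SNRPN are human genes for which imprinted expression is known, and their poly(A) sites were followed here in H9 cells, an established human embryonic stem cell line, with edited CFIm25. The 6 genes were taken by symbol, as every site the deposited table assigns to them, out of 12693 genes and 29996 sites. All 6 had at least 1 site, and together they held 9 sites, of which 3 belonged to BLCAP, 2 to SNRPN and 1 to each of the other genes. The set was chosen by the NNAT reads of these same libraries, that is by the known gene-level difference of NNAT between the groups, so the values of the 6 genes in that contrast are descriptions and carry no test.

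The libraries came from 2 control clones, which received the empty CRISPR vector, and 3 CFIm25 KO clones, whose cells were given guide RNAs directed near the start codon of NUDT21, the gene of CFIm25. The empty vector and the clones are taken from the text of the study, since the labels name the controls only as control H9 cells. CFIm25 belongs to cleavage factor I, part of the machinery that cuts and polyadenylates pre-mRNA, and recognises the motif UGUA ahead of the cut. All clones were H9 cells grown in mTeSR medium, and poly(A)+ RNA was sequenced from its 3' ends. The study states that cultures were selected on puromycin before single-cell clones were picked. It names no further treatment for the 3' end libraries. Each library is taken as 1 clone. The study describes the edited clones as having strongly reduced CFIm25 with short N-terminal deletions, so "CFIm25 KO" is the name of a group and not a statement of complete loss. Differences between clones that editing did not make cannot be told apart from its effect. NUDT21 held 223 and 222 CPM (reads per 1000000 reads, scaled by library) in the controls and 131, 129 and 133 CPM in CFIm25 KO clones 1 to 3 (log2 fold change -0.77, SE 0.112, edgeR adjusted p = 0.0324), a 3' end readout that lies outside the edited part and checks neither the edit nor the protein.

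Imprinted genes are expressed mainly or wholly from the allele inherited from one parent, because a nearby control region is methylated in one germline and not in the other. NNAT, DLK1, PEG10, MEST and SNRPN are known as paternally expressed genes. NNAT lies inside the intron of BLCAP on the opposite strand, and BLCAP is biallelic in many tissues and shows allelic preference in brain. The reads were not separated by allele, so every level below is the sum over both alleles.

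The ends of the transcripts were read from GENCODE transcripts whose length along the genome equals that of the RefSeq gene. The 30 bases that end at the deposited poly(A) position are shown for 4 genes on which the results turn, with the hexamer AATAAA in capitals, since it is the motif that the cleavage and polyadenylation machinery recognises.
NNAT: caggaccctgcggtgcagtagaggcgcacc
BLCAP: gaaatgtttAATAAAgctttataaacttta
DLK1: tacagaataataataagaatttcatcttta
PEG10: aaattcAATAAAgatttagtggttaagtgc
In BLCAP the hexamer started 21 bases before the site at the RefSeq gene end, and in PEG10 24 bases before the site. NNAT and DLK1 held neither AATAAA nor its variant ATTAAA, on the transcribed strand, in the 60 bases before their site, and in NNAT the nearest AATAAA started 67 bases upstream. Of 19529 canonical protein-coding transcripts, 78.9% held AATAAA or ATTAAA in their last 60 bases. The letters TGTA, the DNA form of the UGUA motif, were found 1 time in the 100 bases before the PEG10 site and 0 times before the other 3, and 52.2% of those transcripts held it in their last 100 bases. A match or its absence describes these letters only.

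NNAT encodes a small proteolipid of the endoplasmic reticulum membrane known from developing brain. Its site lay on chromosome 20 at position 37523686 (GRCh38, forward strand), in the 3' UTR and 4 bases before the RefSeq gene end. NNAT (ENSG00000053438) had 53 and 72 control reads, and 240, 387 and 189 reads in CFIm25 KO clones 1 to 3. After scaling for depth this was 11.1 and 15.4 CPM against 33.7, 63.4 and 38.0 CPM. Every CFIm25 KO clone lay above both controls, clone 2 was the highest, and the groups did not overlap. The mean went from 13.2 ± 3.06 CPM (SD, n = 2) to 45.05 ± 16.1 CPM (SD, n = 3), a log2 fold change of 1.77 (SE 0.318). Against the control mean, clones 1, 2 and 3 held 2.55, 4.80 and 2.88 times the level. Without clone 2 the mean of the other two was 35.9 ± 3.03 CPM and the log2 fold change was 1.44 (SE 0.21). In bulk RNA, more cells that express a gene and more RNA per cell cannot be told apart.

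**Figure D1:**
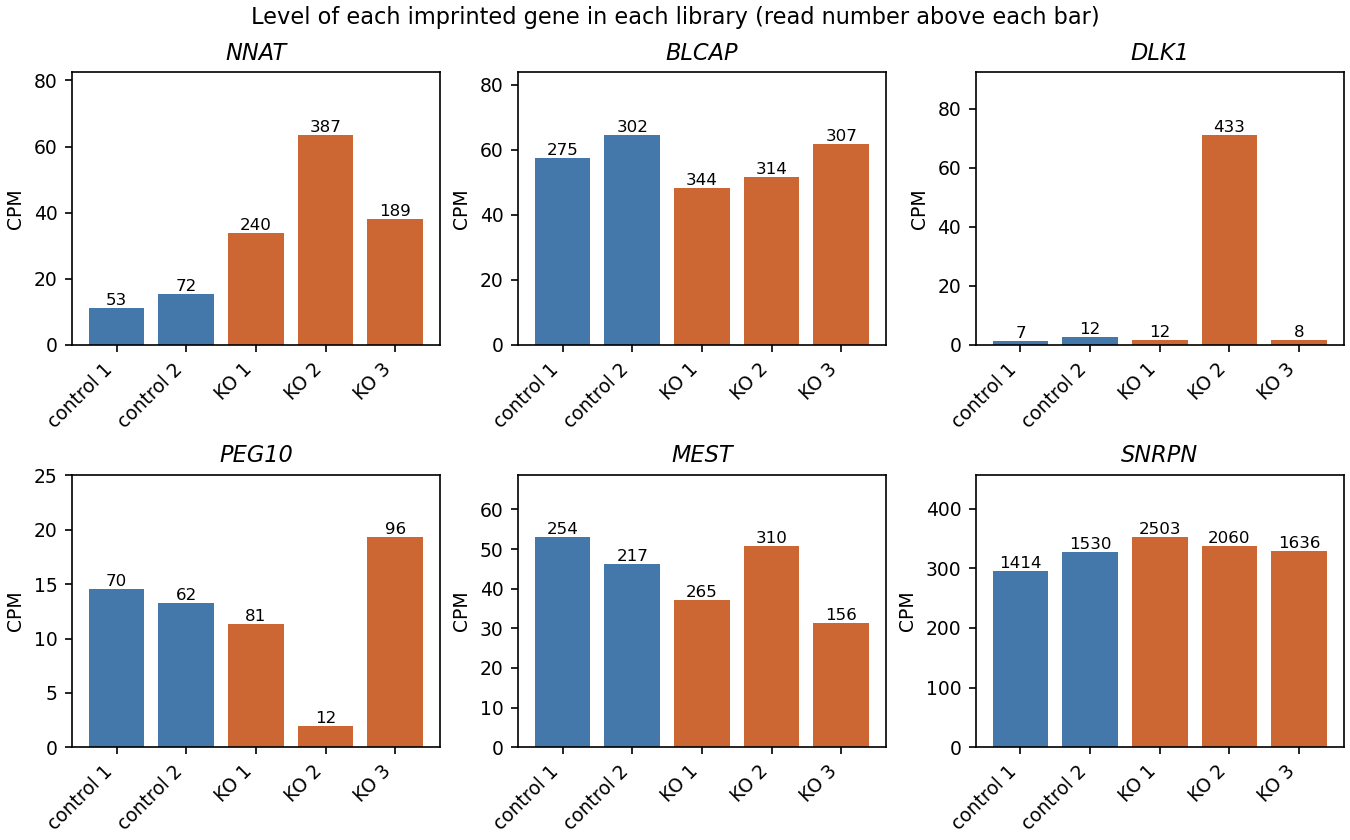
Bars give the level of each gene in CPM (vertical axis, its own scale per gene, starting at 0) in control 1, control 2 and CFIm25 KO clones 1 to 3, with the read number above each bar. NNAT was between 33.7 and 63.4 CPM in the CFIm25 KO clones against 11.1 and 15.4 CPM in the controls, and DLK1 and PEG10 stood apart in clone 2.

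BLCAP encodes a small protein first described in bladder cancer, whose mRNA is edited from adenosine to inosine. Summed over its 3 sites, BLCAP (ENSG00000166619, chromosome 20, reverse strand) had 275 and 302 control reads, and 344, 314 and 307 reads in CFIm25 KO clones 1 to 3. The levels were 57.3 and 64.5 CPM against 48.3, 51.5 and 61.7 CPM. Clones 1 and 2 lay below both controls and clone 3 between them, so the groups overlapped. The mean was 60.9 ± 5.06 CPM (SD, n = 2) in control and 53.8 ± 7.002 CPM (SD, n = 3) in CFIm25 KO, and the log2 fold change was -0.18 (SE 0.153), close to its own error.

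In a 3' end assay a transcript gives reads at its end only, so read numbers of different genes can be set against each other without a correction for length. NNAT gave 0.193 and 0.238 reads per BLCAP read in the controls. In CFIm25 KO clones 1 to 3 the ratio was 0.698, 1.23 and 0.616. Only in clone 2 did NNAT reads outnumber BLCAP reads. The kit keeps the strand, and the nearest BLCAP site was 4963 bp from the NNAT site and on the other strand. The 10000 bp around the sites of the 6 genes held 0 sites that the table left without a gene.

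**Figure D2:**
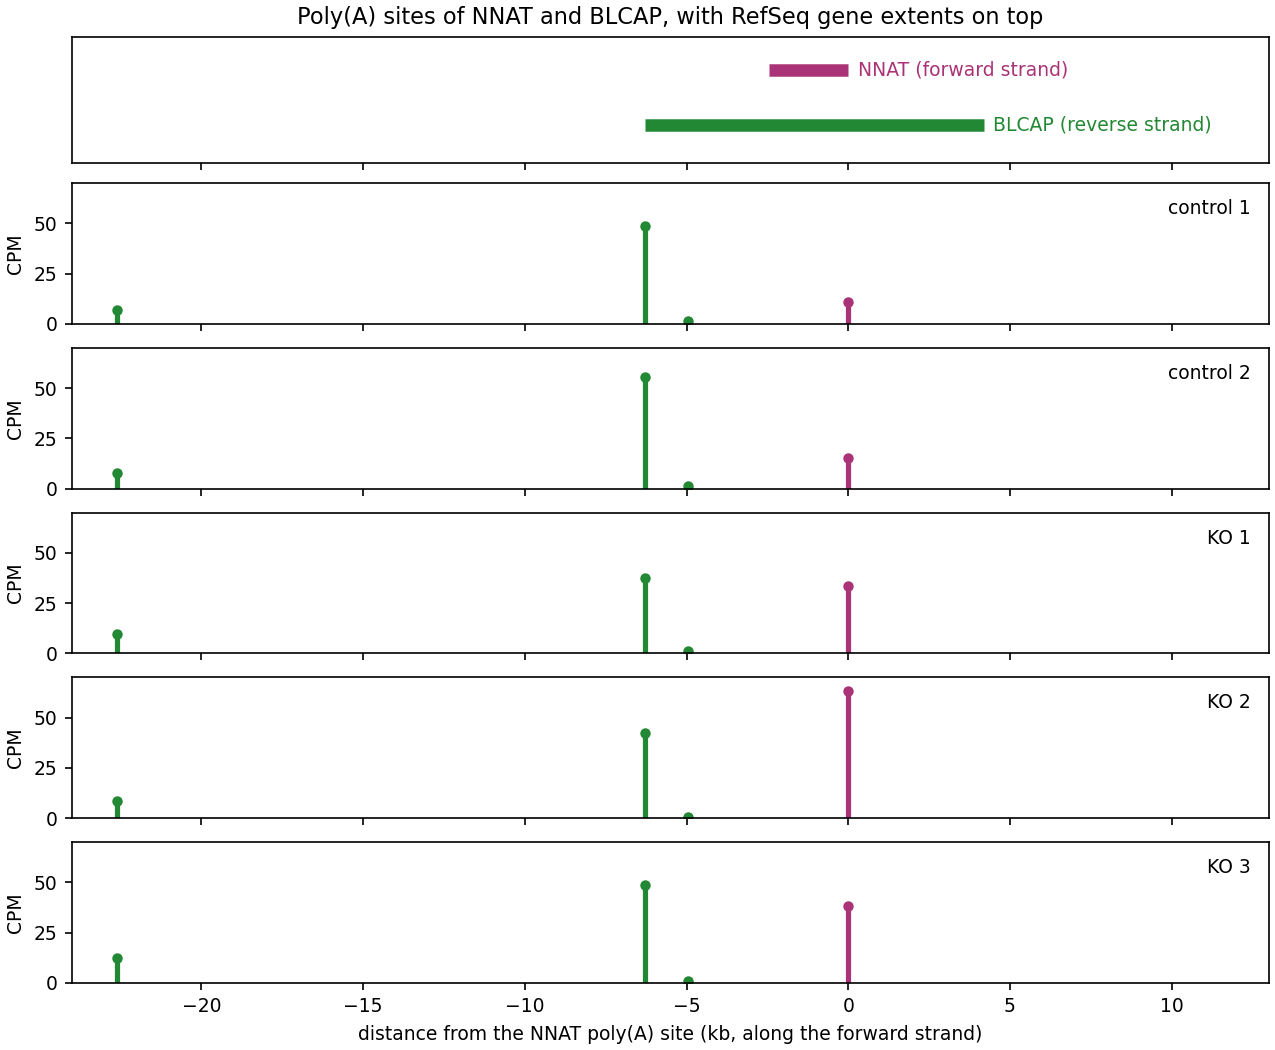
Level in CPM (vertical axis) of each NNAT and BLCAP poly(A) site against its distance from the NNAT site in kilobases along the forward strand, 1 panel per library, with the RefSeq extents of both genes on top. The NNAT stem was taller than the largest BLCAP stem in CFIm25 KO clone 2 (63.4 against 42.3 CPM) and shorter in the other 4 libraries.

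Most BLCAP reads ended at position 37517417, exactly the RefSeq end of the gene, although the deposited annotation calls this site intronic. This site had 233 and 260 control reads, and 266, 258 and 241 reads in CFIm25 KO clones 1 to 3. Its share of BLCAP reads was 84.7 and 86.1% in the controls against 77.3, 82.2 and 78.5% in the CFIm25 KO clones. It was lower in every CFIm25 KO clone than in either control.

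A second BLCAP site lay at 37501080, annotated as exonic and 16337 bp beyond the RefSeq end. It had 34 and 36 control reads, and 68, 53 and 61 reads in CFIm25 KO clones 1 to 3, that is 12.4 and 11.9% of BLCAP reads against 19.8, 16.9 and 19.9%. Here every CFIm25 KO clone lay above both controls. The mean share was 12.1 ± 0.313% (SD, n = 2) in control and 18.8 ± 1.698% (SD, n = 3) in CFIm25 KO, a difference of 6.7 percentage points, and at the gene end the difference was -6.08 percentage points. In level, the distal site had a log2 fold change of 0.46 (SE 0.273) and the site at the gene end one of -0.29 (SE 0.166). The third site, 1306 bp before the gene end in the 3' UTR, held between 3 and 10 reads per library and the groups overlapped. Among 14904 site shares of genes with more than 1 site, 28.7% did not overlap between the groups, and nothing is read from the BLCAP shares beyond their values, since they come from the contrast that chose NNAT.

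**Figure D3:**
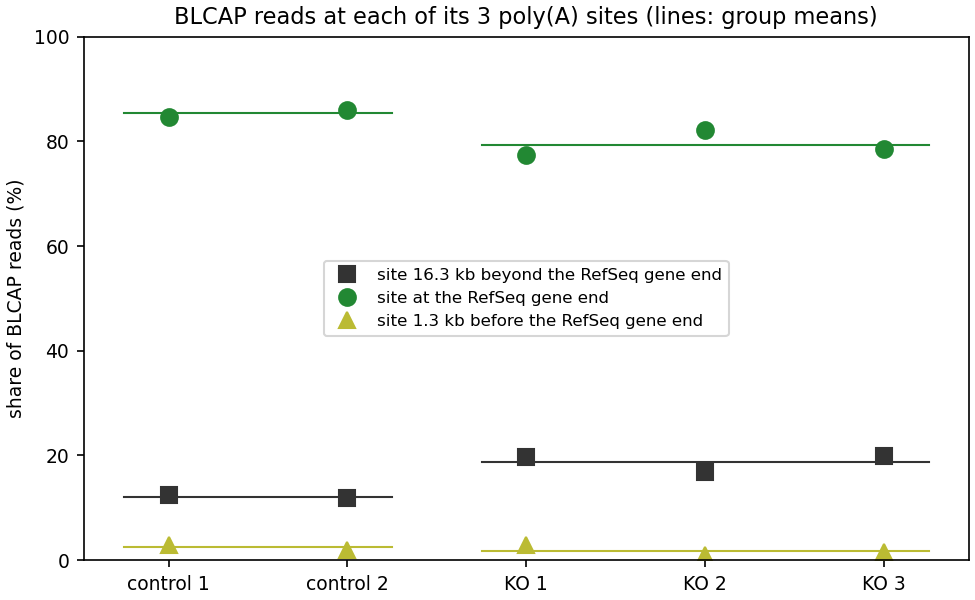
Share of BLCAP reads in percent (vertical axis, 0 to 100) at each of its 3 poly(A) sites in each library, with horizontal lines at the group means. The site at the RefSeq gene end took 84.7 and 86.1% in the controls and 77.3 to 82.2% in the CFIm25 KO clones, and the site beyond it took 11.9 and 12.4% against 16.9 to 19.9%.

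DLK1 encodes a membrane protein of the Delta family that restrains adipocyte differentiation and is expressed in many embryonic tissues. Its site lay on chromosome 14 at position 100735121 (forward strand), in the 3' UTR and 3103 bp before the RefSeq gene end. DLK1 (ENSG00000185559) had 7 and 12 control reads, and 12, 433 and 8 reads in CFIm25 KO clones 1 to 3. In CPM this was 1.46 and 2.56 against 1.69, 71.0 and 1.61. Clone 2 alone was high, at 35.3 times the control mean, while clones 1 and 3 lay within the controls. The 433 reads have a 95% Poisson interval of 393 to 476, which covers counting error only. The fold change over the group (3.62 on the log2 scale, SE 2.797) therefore described 1 clone, and without clone 2 DLK1 no longer passed the filter on low counts.

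PEG10 encodes a protein derived from a retrotransposon and needed in mouse placenta. Its site lay on chromosome 7 at position 94669692 (forward strand), 3 bases before the RefSeq gene end. PEG10 (ENSG00000242265) had 70 and 62 control reads, and 81, 12 and 96 reads in CFIm25 KO clones 1 to 3. In CPM this was 14.6 and 13.2 against 11.4, 1.97 and 19.3. Clone 2 was low, at 0.141 times the control mean, and clones 1 and 3 lay on either side of the controls. The 12 reads have a 95% Poisson interval of 6.20 to 21.0. The log2 fold change was -0.38 (SE 0.927) over the group and turned to 0.12 (SE 0.272) without clone 2. The same clone was thus the highest for DLK1 and NNAT and the lowest for PEG10.

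The distance between the highest and the lowest of the 3 CFIm25 KO clones was compared with that of all 11841 genes tested. The median distance was 0.43 on the log2 CPM scale and the 99th percentile 2.45. DLK1 spanned 5.31 and PEG10 3.18 on this scale, more than 99.92% and 99.53% of genes, respectively. Of 2252 genes within 0.5 log2 CPM of the level of DLK1, 1 other spanned as much, and of 2217 around PEG10 there were 8. The level was the mean over all libraries, and DLK1 held 71.0 CPM in clone 2 against 1.46 to 2.56 CPM elsewhere. Clone 2 thus set both the span of DLK1 and the genes it was compared with. DLK1 also passed the filter on low counts only with clone 2, so its rank is a description with no test. NNAT spanned 0.91, more than 84.2% of all genes and more than 93.5% of 1879 genes of like level. For MEST these shares were 73.8% and 88.5%, and for BLCAP 40.1% and 56.2%. SNRPN stood at the other end, with 0.10, more than 4.42% of all genes and 7.19% of those of like level.

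**Figure D4:**
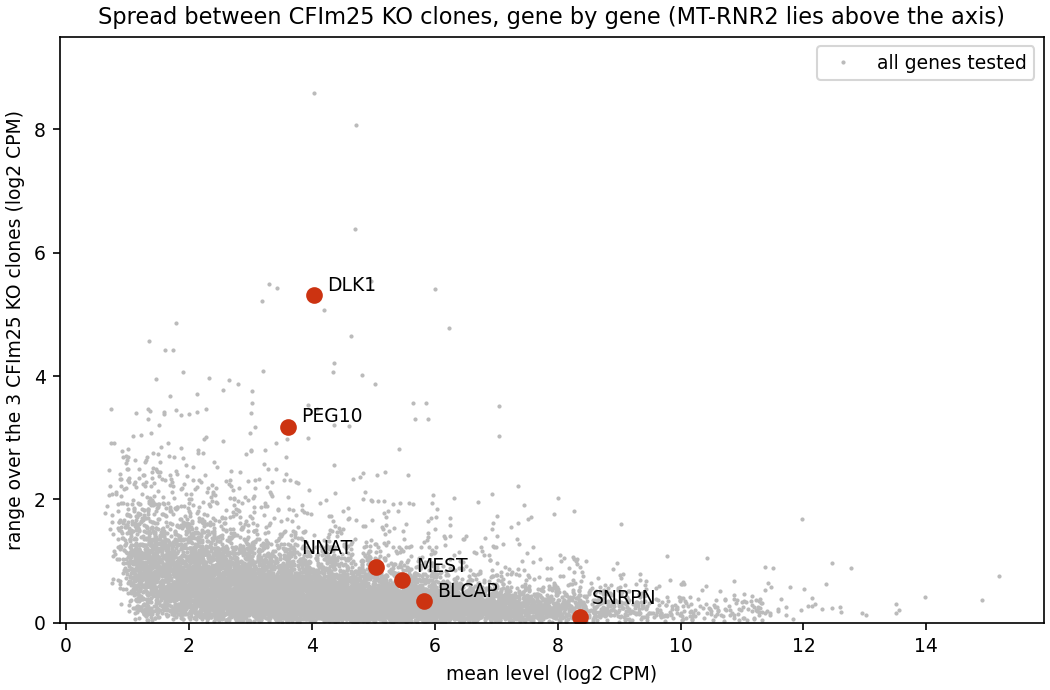
Range over the 3 CFIm25 KO clones in log2 CPM (vertical axis) against mean level in log2 CPM (horizontal axis), with 1 grey point per gene tested and the 6 imprinted genes in red. The mean is over all libraries, so for DLK1 clone 2 set both axes. DLK1 (5.31) and PEG10 (3.18) lay above nearly all genes of their level, NNAT and MEST toward the upper side of the cloud at their level, BLCAP near its middle and SNRPN (0.10) near its lower edge. MT-RNR2, at 14.7, lies above the axis.

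The markers of other cell types were set beside DLK1, PEG10 and NNAT, and of the 5 neural and neuronal markers with a site, SIX3 and MAP2 were highest in clone 2 and the other 3 were not. SIX3, a forebrain and eye homeobox gene, held 0.834 and 1.07 CPM in the controls and 5.90, 116 and 1.21 CPM in CFIm25 KO clones 1 to 3. MAP2, which encodes a dendritic microtubule protein, held 10.4 and 12.2 CPM against 20.7, 109 and 7.24 CPM. SYT1, a synaptic vesicle gene, held 90.3 and 80.3 CPM against 52.1, 51.8 and 106 CPM. The neuronal tubulin gene TUBB3 held 54.8 and 51.0 CPM against 46.9, 61.2 and 84.6 CPM, highest in clone 3, and RBFOX3 held between 4.36 and 6.43 CPM in the 5 libraries. Of 19 neural and neuronal markers 5 had a site, and their summed level was 162 and 150.1 CPM in the controls against 130, 343 and 206 CPM in the CFIm25 KO clones, where the high sum of clone 2 came from SIX3 and MAP2. PAX6, SOX1 and DCX had none. All 10 markers of undifferentiated cells had a site and summed to between 6075 CPM (control 2, where LIN28A held 749 CPM against 1986 to 2759 CPM elsewhere) and 7819 CPM. Of these, ZFP42, also called REX1, held 8.76 and 9.39 CPM in the controls against 0, 0 and 0.201 CPM in the CFIm25 KO clones. AFP was the only one of 11 mesoderm and endoderm markers with a site (1.83 to 4.83 CPM) and KRT7 the only one of 7 trophoblast markers (1.01 to 4.10 CPM). The part of the neural genes in the DLK1, PEG10 and NNAT values was not tested.

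MEST encodes an enzyme of the alpha/beta hydrolase family. Its site lay on chromosome 7 at position 130506287 (forward strand), in the 3' UTR and 178 bases before the RefSeq gene end. MEST (ENSG00000106484) had 254 and 217 control reads, and 265, 310 and 156 reads in CFIm25 KO clones 1 to 3, which is 52.9 and 46.3 CPM against 37.2, 50.8 and 31.4 CPM. Clones 1 and 3 lay below both controls and clone 2 between them. The mean was 49.6 ± 4.68 CPM (SD, n = 2) in control and 39.8 ± 9.98 CPM (SD, n = 3) in CFIm25 KO, with a log2 fold change of -0.32 (SE 0.197) that was -0.53 (SE 0.17) without clone 2. The nearest site of COPG2, a coatomer gene, was 241 bp away on the other strand.

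SNRPN encodes SmN, a spliceosomal protein of neurons and stem cells, in the Prader-Willi region of chromosome 15. SNRPN (ENSG00000128739, forward strand) had 1414 and 1530 control reads, and 2503, 2060 and 1636 reads in CFIm25 KO clones 1 to 3. The levels were 295 and 327 CPM against 352, 338 and 329 CPM. Every CFIm25 KO clone lay above both controls, but clone 3 lay above control 2 by less than the distance between the controls. The mean was 311 ± 22.6 CPM (SD, n = 2) in control and 339 ± 11.5 CPM (SD, n = 3) in CFIm25 KO (log2 fold change 0.13, SE 0.112). Between 98.4 and 99.3% of SNRPN reads ended at position 24978578, 145 bases before the RefSeq gene end. The other site, 142 bp downstream at 24978720, took 0.707 and 1.176% in the controls against 1.64, 0.971 and 1.10% in the CFIm25 KO clones, and the groups overlapped.

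Of the 6 genes, 0 passed an adjusted p of 0.05 in edgeR, against 0.0591% of all 11841 genes. At an unadjusted p under 0.05 there was 1, NNAT, and DESeq2 called 1, against 7.13% and 0.220% of all genes. The groups did not overlap, with CFIm25 KO higher, for NNAT and SNRPN (2 of 6, against 12.0% of all genes) and with CFIm25 KO lower for 0 of 6 (12.4%). The median log2 fold change of the 6 genes was -0.03, and that of all genes was 0.01. These counts include the gene for which the set was made and nothing is read from them.

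Other imprinted genes gave a wider view. Of 54 further genes listed as imprinted, 29 had a site and 25 passed the filter on low counts. None of the 25 was called by edgeR or by DESeq2, and 2 had an unadjusted edgeR p under 0.05, against 7.13% of all genes. Of the 25, 15 had a log2 fold change above 0 and 10 below. Their median was 0.06, with a range from -0.79 to 1.20, and the groups did not overlap for 6 (24.0%, against 24.5% of all genes). KCNQ1, a potassium channel gene, had the highest value: it held 2.29 and 3.20 CPM in the controls and 7.16, 8.20 and 3.42 CPM in CFIm25 KO clones 1 to 3 (log2 fold change 1.20, SE 0.43, edgeR adjusted p = 0.6). FAM50B followed with 0.84 (edgeR adjusted p = 0.724), TP73, a relative of p53, with 0.45 (edgeR adjusted p = 0.809) and PPP1R9A, which encodes neurabin, with 0.39 (edgeR adjusted p = 0.942). The remaining large values were those of TFPI2 (-0.79), ATP10A (-0.34), SNHG14 (0.33) and HM13 (0.31), each with an edgeR adjusted p of 0.568 or more. MEG3, the maternally expressed RNA of the DLK1 locus, had no site, as was the case for H19 and IGF2.

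**Figure D5:**
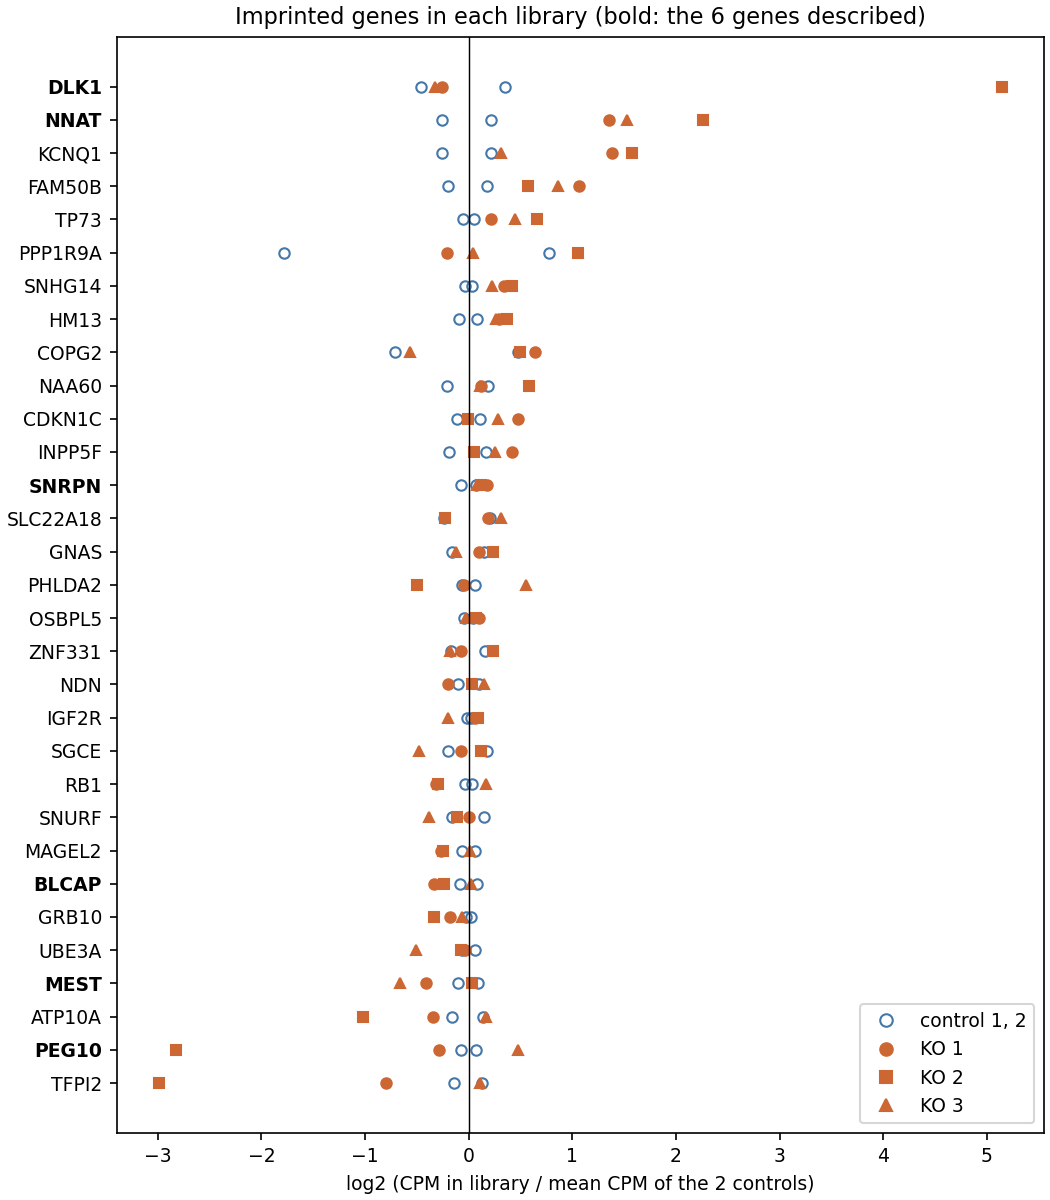
Level of the 6 genes (bold) and the 25 other imprinted genes that passed the count filter, as log2 of the CPM in each library over the mean CPM of the controls (horizontal axis), with open circles for the controls and filled symbols for CFIm25 KO clones 1 to 3. All 3 CFIm25 KO clones of NNAT lay to the right of the controls, and for DLK1, PEG10 and TFPI2 clone 2 lay far from all other libraries.

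The partners of the SNRPN locus are known as SNURF, which shares a bicistronic transcript with SNRPN, SNHG14, the long host transcript of small nucleolar RNAs, and UBE3A, a ubiquitin ligase expressed from the maternal allele in neurons. SNHG14 held 1285 and 1221 CPM in the controls and 1590, 1679 and 1465 CPM in CFIm25 KO clones 1 to 3, and the groups did not overlap (log2 fold change 0.33, SE 0.112, edgeR adjusted p = 0.568). UBE3A held 92.6 and 84.5 CPM against 86.3, 83.9 and 62.3 CPM (log2 fold change -0.19, edgeR adjusted p = 0.863). NDN and MAGEL2, a pair of related MAGE family genes of the same region, had fold changes of 0.00 and -0.17 on the log2 scale (edgeR adjusted p = 1 and 0.939). SNURF held between 21.9 and 31.7 CPM, and how reads are divided between SNURF and SNRPN depends on the annotation that the authors used. SNRPN gave 9.30 and 12.8 reads per SNURF read in the controls against 12.2, 12.7 and 15.0 in the CFIm25 KO clones, so the groups overlapped.

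Near PEG10, SGCE encodes a sarcoglycan and shares a promoter region with PEG10 on the other strand. SGCE held 6.67 and 5.12 CPM in the controls and 5.62, 6.39 and 4.22 CPM in CFIm25 KO clones 1 to 3 (edgeR adjusted p = 0.969). Clone 2, low for PEG10, lay between the controls for SGCE, and gave 0.308 PEG10 reads per SGCE read against 2.03 to 4.57 in the other 4 libraries. TFPI2, a protease inhibitor gene 783.1 kb from PEG10, was listed as imprinted and also low in clone 2, with 17 and 20 reads in the controls against 16, 3 and 21 reads in CFIm25 KO clones 1 to 3. GNGT1, chosen after its values were seen, held 42 and 47 reads against 58, 21 and 82. Of 8 genes tested within 1000000 bp of PEG10, edgeR called 0 and 1 had an unadjusted p under 0.05 (BET1, log2 fold change -0.53). Of 7 genes around DLK1, edgeR called 0 and 0 had an unadjusted p under 0.05. EVL, 590.9 kb from DLK1 and likewise chosen after its values were seen, held 66.2 CPM in clone 2 against 38.6 to 42.6 CPM in the other libraries. Around MEST and SNRPN, 11 and 7 genes were tested and 0 were called, with 0 and 1 at an unadjusted p under 0.05. Of all genes tested, 7.13% had an unadjusted edgeR p under 0.05.

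Of 15 genes tested within 1000000 bp of NNAT and BLCAP on chromosome 20, edgeR called 0 and DESeq2 0. At an unadjusted edgeR p under 0.05 there were 2, against 7.13% of all genes. The log2 fold changes of the 15 genes ran from -0.62 to 0.48 with a median of 0.08. The groups did not overlap for 5 of them (33.3%, against 24.5% of all genes). The nearest tested genes on either side, by distance of their sites from the NNAT site, were MANBAL and CTNNBL1. MANBAL, at 206.4 kb, had a log2 fold change of -0.04 (edgeR adjusted p = 0.978). CTNNBL1, a spliceosome-associated protein, lay at 209.3 kb and had 0.17 (edgeR adjusted p = 0.846). RPN2, a subunit of the oligosaccharyltransferase, had 0.14 (edgeR adjusted p = 0.892) and TTI1 had -0.08 (edgeR adjusted p = 0.963). RBL1, RPRD1B and SAMHD1 had -0.31, -0.27 and -0.62, in that order (edgeR adjusted p = 0.92, 0.851 and 0.747). The 2 genes at an unadjusted p under 0.05 were SOGA1 (0.44, edgeR adjusted p = 0.693) and DSN1, a kinetochore gene named after its values were seen (0.48, edgeR adjusted p = 0.6).

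Among 8334 genes with a mean of at least 3 log2 CPM, the 5 whose levels over the 5 libraries lay closest to those of NNAT, by root mean square distance after centring each gene, were SLC7A3 (0.28 log2 units), SNTG2 (0.32), DPP10 (0.33), NCAN (0.40) and AL354714.2 (0.40). SLC7A3 encodes a cationic amino acid transporter, and held 3.34 and 5.76 CPM in the controls and 7.59, 15.3 and 9.45 CPM in CFIm25 KO clones 1 to 3. SNTG2, which encodes a syntrophin, held 11.9 and 14.3 CPM against 37.7, 43.9 and 24.9 CPM. DPP10, which encodes a subunit of voltage-gated potassium channels, held 10.2 and 13.5 CPM against 26.3, 43.4 and 18.3 CPM. Since the genes were picked for this likeness, their order of libraries is a description with no test.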

How the data were processed

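The authors mapped the reverse complemented reads of the 3' end libraries (QuantSeq Rev, NovaSeq) with Bowtie2, discarded internal priming and grouped read ends into poly(A) sites. Their deposited table gives a raw read count per site and library for sites with a summed RPM of 5 or more. It also gives deposited RPM values per library, their sum as a score column, a ratio of group means (fold change) and a p-value per site. The RPM and score columns, and the fold and p-value columns of the authors' own comparison, were not used. The labels give hg19 as the build. However, 98.852% of 22991 sites were located within 5000 bp of their RefSeq gene in GRCh38, against 12.462% of 24707 in GRCh37, so positions are given as GRCh38 and no sequence was read by coordinates.

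Library totals ran from 5203908 to 7783102 reads, of which 9.78 to 10.8% lay in sites without a gene, and those sites were left out of gene sums. Reads carry no molecular identifiers, so Poisson intervals (95% level) cover counting error only. Gene counts were sums over sites. Genes (11841) and sites (24722) were fitted with edgeR 4.0.16 in R 4.3.3 (TMM, filterByExpr, robust quasi-likelihood test, no covariate, two-sided) and Benjamini-Hochberg adjusted p-values at a threshold of 0.05, and all 6 genes and 8 of their 9 sites passed the filter. The fit was tested on simulated data. Alternatives were other scalings, no filter, DESeq2 1.42.0, a block on the replicate number, and each library left out. The p-values measure the spread between clones, 1 library each.

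The 6 genes, the list of imprinted genes and the markers were chosen with earlier results of these data known. Named were these 6 genes, NUDT21, up to 8 listed imprinted genes of largest fold change and partners of the 6 loci. Also named were the 8 genes with a site nearest to NNAT and BLCAP, and the 5 genes whose pattern was closest to that of NNAT. Transcript ends came from GENCODE release 44, and gene extents from RefSeq (GRCh38).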

Additional observations from a re-analysis of the deposited data

How the results depend on the processing

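The log2 fold change of NNAT stayed between 1.44 and 2.02 over 11 alternatives, that of BLCAP between -0.29 and -0.09 and that of MEST between -0.53 and -0.18. DLK1 ranged from 3.27 to 4.18 over 10 alternatives and gave no value without CFIm25 KO 2, and PEG10 ranged from -1.19 to 0.12, its sign turning without CFIm25 KO 2. SNRPN ranged from 0.06 without control 1 to 0.20 without control 2. With 3' UTR sites alone BLCAP failed the count filter. The count of called genes, 7, was 11 with library totals, 26 with DESeq2 and 2 to 123 when 1 library was left out, with 2 without control 2, 3 without CFIm25 KO 1, 12 without CFIm25 KO 2 and 123 without CFIm25 KO 3. The count of called sites, 25, was 61 with DESeq2 and 29 to 329 when 1 library was left out (45 without control 1, 329 without CFIm25 KO 3). The labels do not say whether same-numbered libraries were paired or shared a batch. Deviations of same-numbered clones correlated at 0.0577 and 0.0342 with 2 pairs. With 2 controls, the deviations of control 1 mirror those of control 2, so these correlations cannot decide it. The fit with the replicate block called 634 genes (310 higher, 324 lower) and 624 sites. No control shares the number of CFIm25 KO 3, so the block term absorbs that clone. The blocked contrast therefore rests on CFIm25 KO 1 and 2 and is not a paired result over all clones. The blocked fit also called 2 other imprinted genes, 2 genes near NNAT and BLCAP and 1 of the genes around the other 4 loci. The main analysis called 0 of each of these 3 lists. Of the 6 genes, 1 was called with DESeq2, without CFIm25 KO 2 or with the block, and 0 otherwise. The causes were not tested. BLCAP by its gene-end site alone and the genes around the other 4 loci were added after seeing the data. Low read numbers limit DLK1 (7 to 12 reads in 4 libraries) and the third BLCAP site (3 to 10 reads).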

Other observations

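SNHG14, the host transcript downstream of SNRPN, had 2 large sites that lay 58 bp apart and whose deposited counts were uneven. The site at 25120410 on chromosome 15 (GRCh38) had 3577 and 4565 control reads, and 6219, 8008 and 5913 reads in CFIm25 KO clones 1 to 3. The site at 25120352 held 1293 reads in control 1 and 2740 in CFIm25 KO 1, and 0 in the other 3 libraries. The reason for the counts of 0 was not tested, and they are not read as a difference in use. The SNHG14 levels given above are sums over all its sites and so include both.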
